A study of Mus musculus with 8 samples.

Results

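The receptors through which macrophages sense and bind chemokines were followed by 5 genes, Ccr1, Ccr2, Cx3cr1, Cxcr4 and Ccrl2, which were taken by gene symbol from the 55801 genes of an expression table. RNA had been sequenced from mouse peritoneal macrophages in 4 groups of 2 samples, 8 in all, to ask how the small molecule C498 alters the macrophage response to lipopolysaccharide (LPS), the cell wall component of Gram-negative bacteria that is sensed by Toll-like receptor 4. The study selected C498, known by its code name, as an inhibitor of JAK/STAT and NFκB signaling. NC samples received the vehicle DMSO alone, LPS samples vehicle for 0.5 h and then 100 ng/ml LPS for 4 h, C498 samples 15 μM C498 alone, and C498+LPS samples 15 μM C498 for 0.5 h followed by 100 ng/ml LPS for 4 h. All cells came from male C57BL/6 mice of 6 to 8 weeks and were flushed from the peritoneal cavity 72 h after thioglycollate, an irritant that draws monocytes into the cavity. All groups therefore share this elicitation. Neither the labels nor the methods say whether the 2 samples of a group were separate animals or cultures, so every p-value below measures only the spread between these samples, which may be technical.

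Chemokine receptors are seven-transmembrane proteins that couple to inhibitory G proteins and steer leukocytes along gradients of secreted chemokines. Ccr1 binds the inflammatory CC chemokines Ccl3 and Ccl5, Ccr2 binds the monocyte attractant Ccl2, Cx3cr1 binds fractalkine (Cx3cl1), and Cxcr4 binds Cxcl12, the chemokine that retains leukocytes in bone marrow and tissue. Ccrl2 differs from the others, since it binds chemerin without known G protein signaling and is thought to present it to the signaling receptor Cmklr1.

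Of the 5 genes, 3 (Ccr1, Cxcr4 and Ccrl2) had a mean of at least 1 TPM (the share of a sample's transcripts that a gene takes, scaled for transcript length so that genes can be compared) over the 8 samples and entered the test across genes. Ccr2 and Cx3cr1 did not, with means of 0.491 and 0.231 TPM. The test was limma on log2(TPM + 1) over 12189 genes, and a gene was called when its change was at least 2-fold and its p, adjusted by the Benjamini-Hochberg method, was no higher than 0.05. Log2 changes on this scale understate the change of low genes. The median of all tested genes lay at -0.17 in LPS vs NC, -0.18 in C498+LPS vs C498 and -0.15 in C498+LPS vs NC, so that changes in these comparisons are read against a small downward shift, and it was within 0.03 of 0 in the other comparisons.

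In GENCODE M21 on GRCm38, Ccr1 lies at chr9:123962124-123968692 on the minus strand, and Ccr2 at chr9:124101950-124113557 on the plus strand, in the same receptor cluster as Ccr3 and Ccr1l1. Ccrl2 lies apart on that chromosome, at chr9:111054486-111057519 on the minus strand. Cx3cr1 spans chr9:119901616-120069879 on the minus strand, and Cxcr4 lies at chr1:128588199-128592293 on the minus strand. The authors' genome build is not named in the sources used here. RefSeq promoter windows of GRCm38.p6 were found for all 5 genes, and the 250 bases before the start are shown for the 3 receptors that were tested, because their mRNA moved in different directions. For Ccrl2, which has 3 RefSeq starts, the window of the first is chr9:111057519-111057768, for Ccr1 chr9:123968693-123968942 and for Cxcr4 chr1:128592300-128592549, all read on the minus strand from 5′ to 3′. Capitals mark matches to the κB consensus, the element bound by NFκB, and to ACGTG, the core of the hypoxia response element.
Ccrl2: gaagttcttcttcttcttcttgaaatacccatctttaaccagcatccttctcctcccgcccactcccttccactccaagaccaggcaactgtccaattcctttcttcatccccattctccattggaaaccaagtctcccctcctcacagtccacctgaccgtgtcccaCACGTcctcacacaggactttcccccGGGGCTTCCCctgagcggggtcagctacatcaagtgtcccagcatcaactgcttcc
Ccr1: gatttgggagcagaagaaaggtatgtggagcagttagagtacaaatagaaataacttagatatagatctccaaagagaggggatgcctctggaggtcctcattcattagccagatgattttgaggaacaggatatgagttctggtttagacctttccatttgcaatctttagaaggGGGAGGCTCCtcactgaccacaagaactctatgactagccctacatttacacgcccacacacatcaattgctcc
Cxcr4: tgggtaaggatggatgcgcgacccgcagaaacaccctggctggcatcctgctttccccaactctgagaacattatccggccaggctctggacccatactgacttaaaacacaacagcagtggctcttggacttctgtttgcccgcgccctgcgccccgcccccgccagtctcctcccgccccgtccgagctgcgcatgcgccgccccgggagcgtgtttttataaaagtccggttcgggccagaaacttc
Upstream of Ccrl2, the κB consensus matched at 1 position on both strands, 56 to 47 bases before the start, and ACGTG matched 82 to 78 bases before it on the minus strand of the window. The windows of the other 2 Ccrl2 starts held no κB match, and each held 1 match to TGACG and 1 to ACGTG. In Ccr1 the κB consensus matched once, 74 to 65 bases before the start. Such a match was present in 7.25% of 32851 mouse promoter windows of this length, and ACGTG in 16.6%. The Cxcr4 window held neither, nor the AP-1 motif TGANTCA (6.75% of windows), TGACGTCA (1.55%), its shorter form TGACG (17.8%) or the interferon-stimulated response element (2.98%), all searched on both strands. It was the richest of the 3 in G and C, at 61.2% against 54.0% in Ccrl2 and 43.6% in Ccr1, with 19 CpG dinucleotides against 5 and 1. No match says only that these letters are not in this window, and a match describes sequence, not binding.

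The chemerin receptor Ccrl2 was the member with the highest mRNA level under LPS. Its level was 78.2 and 67.0 TPM in the NC samples, 1090.5 and 962.7 TPM in the LPS samples, 315.3 and 281.2 TPM in the C498 samples, and 1626.9 and 1565.5 TPM in the C498+LPS samples. No 2 groups overlapped, and the order from low to high was NC, C498, LPS and C498+LPS. LPS raised Ccrl2 from 72.6 ± 7.95 to 1026.6 ± 90.3 TPM (mean ± SD, n = 2 each), a log2 change of 3.80 (SE 0.112, adjusted p = 2.35e-06, limma). C498 alone raised it as well, 4.11-fold in mean TPM, with a log2 change of 2.02 (SE 0.112, adjusted p = 0.000131). With C498 present, LPS raised it by a log2 change of 2.42 (SE 0.112, adjusted p = 4.95e-05), and C498+LPS samples stood 22.0-fold above NC in mean TPM. The step between the 2 highest groups was small. C498+LPS exceeded LPS by 0.64 on the log2 scale (95% interval 0.38 to 0.90, adjusted p = 0.0101), which is under 2-fold, and the adjusted p was 0.0825 without LPS replicate 2, 0.0553 without C498+LPS replicate 1 and 0.0652 without C498+LPS replicate 2.

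**Figure D1:**
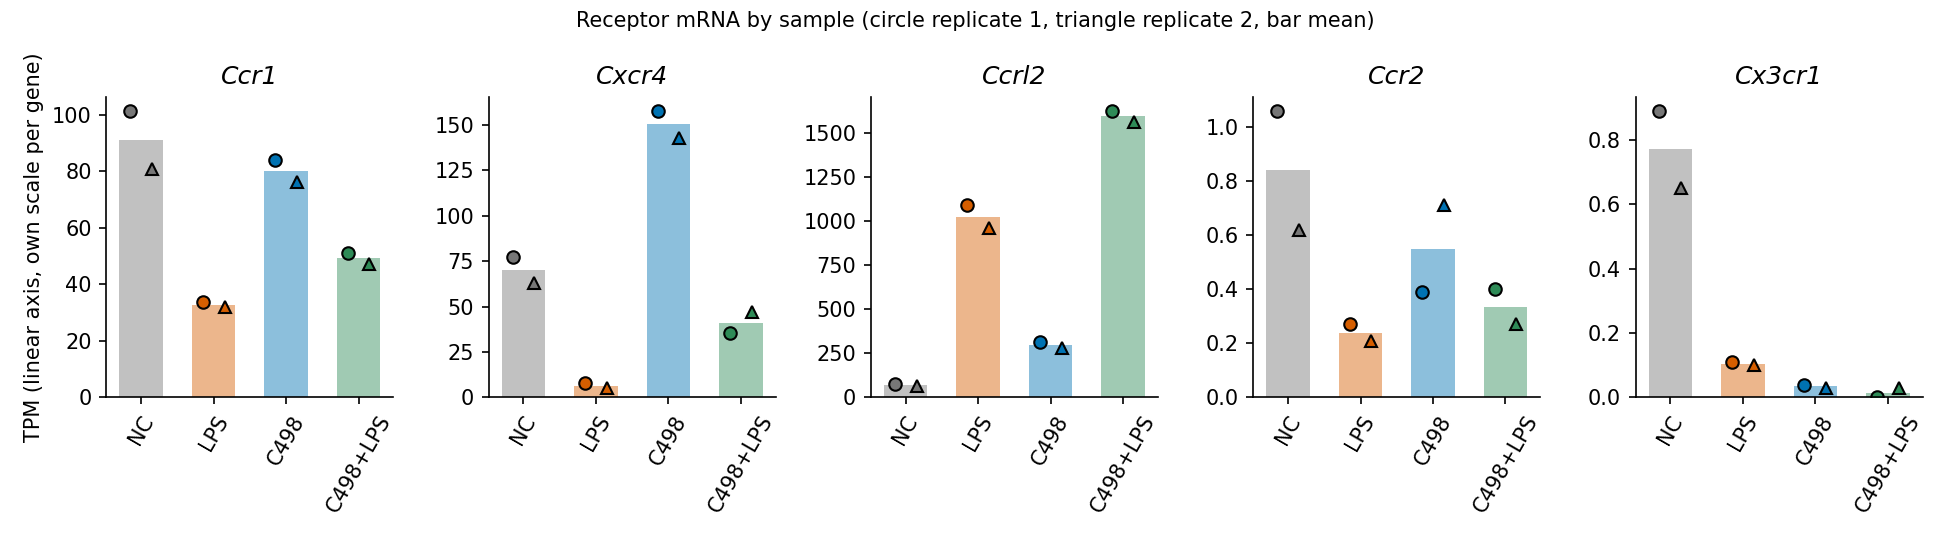
mRNA levels of the 5 receptor genes in TPM (linear vertical axes, 1 scale per gene) in the 4 groups. Bars are group means, circles replicate 1 and triangles replicate 2. Ccrl2 rises from 67.0 to 78.2 TPM in NC to over 1565 TPM in C498+LPS, Cxcr4 is lowest in LPS and highest in C498, and Ccr2 and Cx3cr1 stay near or under 1 TPM throughout.

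Cxcr4, the receptor of Cxcl12, moved opposite to Ccrl2 under LPS and with it under C498. Its level was 77.2 and 62.8 TPM in NC, 7.69 and 5.14 TPM in LPS, 158 and 143 TPM in C498, and 35.6 and 46.8 TPM in C498+LPS. The groups did not overlap, and their order from high to low was C498, NC, C498+LPS and LPS. LPS lowered Cxcr4 10.9-fold in mean TPM, a log2 change of -3.27 (SE 0.208, adjusted p = 7.19e-05, limma). C498 alone raised it 2.15-fold, a log2 change of 1.10 (SE 0.208, adjusted p = 0.0158). This call was close to its threshold. It was lost when NC replicate 2, C498 replicate 1 or C498 replicate 2 was left out, with log2 changes of 0.95, 1.03 and 1.17 and adjusted p of 0.0744, 0.121 and 0.0885, and when samples were centred on the median gene, at 0.98.

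In cells that had received C498, LPS still lowered Cxcr4, from 150.4 ± 10.4 to 41.2 ± 7.92 TPM (mean ± SD, n = 2 each), with a log2 change of -1.85 (SE 0.208, adjusted p = 0.00200). The Cxcr4 mRNA that remained under LPS was thus 6.43-fold higher with C498 than without it in mean TPM, a log2 change of 2.52 (SE 0.208, adjusted p = 0.000793). That call held when each sample was left out in turn. Against NC, the C498+LPS samples differed by -0.76 on the log2 scale (95% interval -1.24 to -0.27, adjusted p = 0.0243), under 2-fold, and the adjusted p ranged from 0.0204 to 0.140 over the alternative settings.

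Ccr1, a receptor for Ccl3, Ccl5 and other inflammatory chemokines, was lowest under LPS alone. NC samples had 101 and 80.9 TPM, LPS samples 33.7 and 31.9 TPM, C498 samples 83.9 and 76.2 TPM and C498+LPS samples 51.0 and 47.3 TPM. NC replicate 2 fell between the 2 C498 samples, and no other groups overlapped. LPS lowered Ccr1 2.78-fold in mean TPM, a log2 change of -1.44 (SE 0.131, adjusted p = 0.00036, limma). C498 alone gave -0.18 (95% interval -0.49 to 0.13, adjusted p = 0.386), so a fall of about 0.49 or a rise of about 0.13 on the log2 scale is within the interval. With C498 present the difference made by LPS was -0.69 (95% interval -0.998 to -0.384, adjusted p = 0.0148), which did not reach 2-fold. C498+LPS stood above LPS by 0.57 (95% interval 0.26 to 0.88, adjusted p = 0.0264) and below NC by a log2 change of -0.87 (95% interval -1.18 to -0.56, adjusted p = 0.00215), again without reaching 2-fold. These smaller differences were less stable. The adjusted p rose above 0.05 for C498+LPS vs LPS when any of LPS, C498 or C498+LPS samples was left out, at 0.0557 to 0.144, and for C498+LPS vs C498 when any sample of those groups was, at 0.0602 to 0.111.

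Counted over the comparisons, all 3 tested receptors were called in LPS vs NC, with 1 higher and 2 lower, where 12.2% of all tested genes were called, 5.55% higher and 6.68% lower. In C498 vs NC 2 were called, both higher, against 7.00% of genes, 5.64% higher and 1.36% lower. In C498+LPS vs C498 2 were called, Ccrl2 higher and Cxcr4 lower, against 5.64%, with 2.52% higher and 3.13% lower. C498+LPS vs LPS gave 1 call, Cxcr4 higher, against 7.57%, with 5.39% higher and 2.18% lower. C498+LPS vs NC gave 1 call, Ccrl2 higher, against 18.2%, with 9.15% higher and 9.06% lower. By adjusted p alone, with no fold threshold, all 3 passed in each of the last 3 comparisons, where 16.2%, 16.8% and 41.7% of genes did. The comparisons share samples and are not independent of each other. With 2 samples against 2, an exact two-sided permutation test of a single gene cannot go below 0.333, so these calls rest on the spread that limma estimates across all genes.

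**Figure D2:**
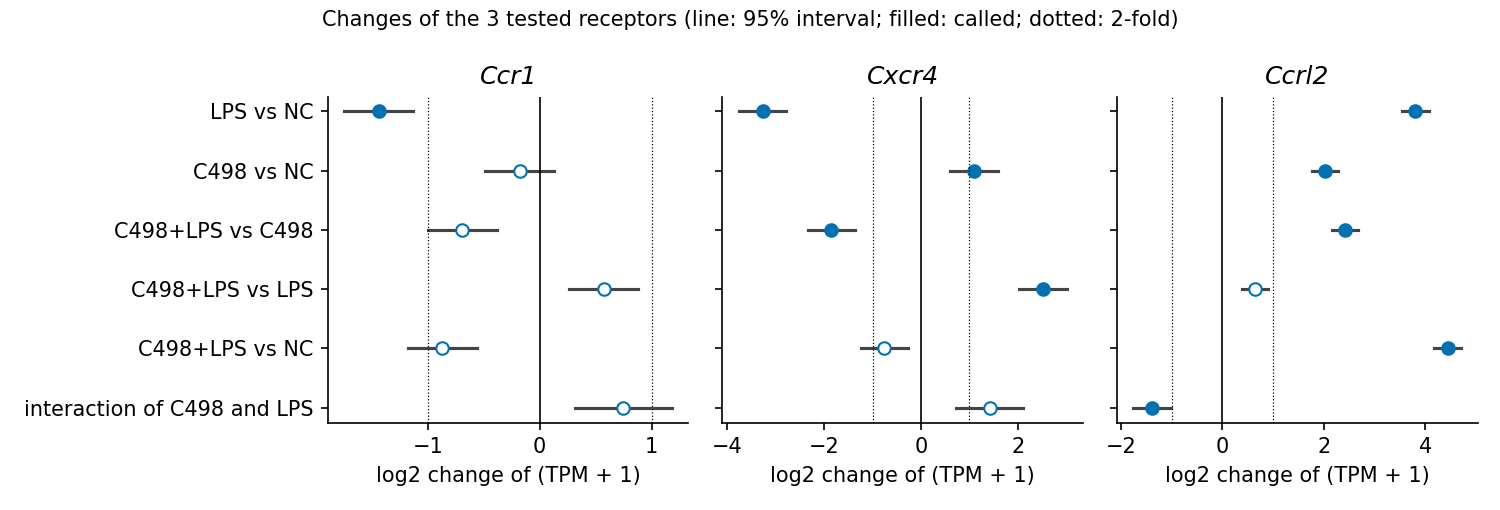
Log2 changes of (TPM + 1) for Ccr1, Cxcr4 and Ccrl2 in the 5 comparisons and the interaction, with lines for 95% intervals, filled points for calls and dotted lines at 2-fold. Horizontal axes differ between genes. Cxcr4 runs from -3.27 in LPS vs NC to 2.52 in C498+LPS vs LPS, while every Ccr1 point but LPS vs NC lies within 2-fold.

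The interaction asks whether LPS changed a receptor by a different amount in the presence of C498. For Ccrl2 the log2 change by LPS was 3.80 without and 2.42 with C498, and the difference of -1.39 (SE 0.158, adjusted p = 0.0214, limma) was called. It was the only one of the 3 receptors called here, where 0.468% of genes were called, 0.0738% higher and 0.394% lower. Ccrl2 began from a level 4.11-fold higher in C498 samples, and its level after LPS was not lower but higher with C498. The call was lost when any of the 6 samples other than NC was left out, with values from -1.48 to -1.30 and adjusted p from 0.0732 to 0.139. Cxcr4 fell by 3.27 on the log2 scale without C498 and by 1.85 with it, and the difference of 1.42 (95% interval 0.73 to 2.11) had an adjusted p of 0.120. For Ccr1 the difference was 0.75 (95% interval 0.31 to 1.18, adjusted p = 0.192). In these 2 genes the intervals leave out 0, and the difference did not pass the correction over 12189 genes.

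Ccr2, the Ccl2 receptor that marks inflammatory monocytes, was near the lower limit of the table. Its level was 1.06 and 0.62 TPM in NC, 0.27 and 0.21 TPM in LPS, 0.39 and 0.71 TPM in C498, and 0.40 and 0.27 TPM in C498+LPS. Both NC samples stood above all LPS and C498+LPS samples, while C498 replicate 2 exceeded NC replicate 2. Without the filter on low values, none of the comparisons passed for Ccr2. LPS vs NC gave -0.56 (SE 0.165, adjusted p = 0.0935, limma), and -1.43 (adjusted p = 0.150) with a pseudocount of 0.1 TPM.

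Cx3cr1, the fractalkine receptor of resident macrophages and patrolling monocytes, was detected mainly in cells given vehicle without LPS. NC samples had 0.89 and 0.65 TPM, LPS samples 0.11 and 0.10 TPM, C498 samples 0.04 and 0.03 TPM, and in C498+LPS replicate 1 the gene was listed at 0 and in replicate 2 at 0.03 TPM. Every treated sample lay below both NC samples. In mean TPM the NC level was 7.33-fold that of LPS. With values rounded to 2 decimals and no read counts, the levels in C498 and C498+LPS are too close to 0 for a fold to be given. Without the filter, the log2(TPM + 1) change against NC was -0.68 in LPS (adjusted p = 0.00502, limma), -0.77 in C498 (adjusted p = 0.00763) and -0.80 in C498+LPS (adjusted p = 0.00204), none of which reaches 2-fold on a scale that adds 1 TPM to values this low. With a pseudocount of 0.1 TPM instead, a setting chosen after the values were seen, they were -2.07, -2.68 and -2.92 (adjusted p = 0.0161, 0.0144 and 0.00339), and Cx3cr1 was called lower in all 3. Under that setting 4.01%, 0.730% and 5.54% of 24248 genes were called lower in these comparisons. C498+LPS against C498 and against LPS gave no call for Cx3cr1 in either setting.

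Reads of near-identical genes can be divided in error, so 50-base stretches of the transcripts were compared. None of those of Ccr1, Cxcr4 or Ccrl2 occurred in the transcripts of another gene. Of the stretches of Ccr2, 2.27% occurred in transcripts of other genes, and how far misassigned reads add to its low values was not tested. The long Cx3cr1 locus overlaps other genes, among them Csrnp1 on the same strand, at 16.8 TPM in NC, 36.4 TPM in LPS, 207 TPM in C498 and 181 TPM in C498+LPS. Beside Ccrl2, on the same strand and 1293 bases beyond its 3′ side, lies Gm43814, annotated only as a transcript to be experimentally checked. Its mean level followed Ccrl2 at 8.68 TPM in NC, 41.6 TPM in LPS, 20.1 TPM in C498 and 53.9 TPM in C498+LPS. Whether Gm43814 is separate from the Ccrl2 transcript was not tested.

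Set in the whole family of 24 chemokine receptors and atypical receptors, 7 had a mean of at least 1 TPM, and 15 of the 19 receptors other than the members stayed under 1 TPM in every sample. Ccr3 and Ccr1l1, from the Ccr2 cluster, were among them, with at most 0.72 and 0.08 TPM. Summed over the 24 genes, Ccrl2 made up 25.3% and 27.0% of receptor TPM in the NC samples and 93.5% and 93.4% in the LPS samples. In the C498 samples its share was 51.3% and 50.1%, and in C498+LPS 91.5% and 86.8%. Ccr1 and Cxcr4 made up 32.8% and 25.0% in NC replicate 1, 2.89% and 0.659% in LPS replicate 1. Within a sample, Cxcr4 mRNA was 0.761 and 0.776 times that of Ccr1 in NC, 0.229 and 0.161 times in LPS, 1.88 times in both C498 samples, and 0.698 and 0.990 times in C498+LPS. Cxcr4 exceeded Ccr1 only in the C498 samples.

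**Figure D3:**
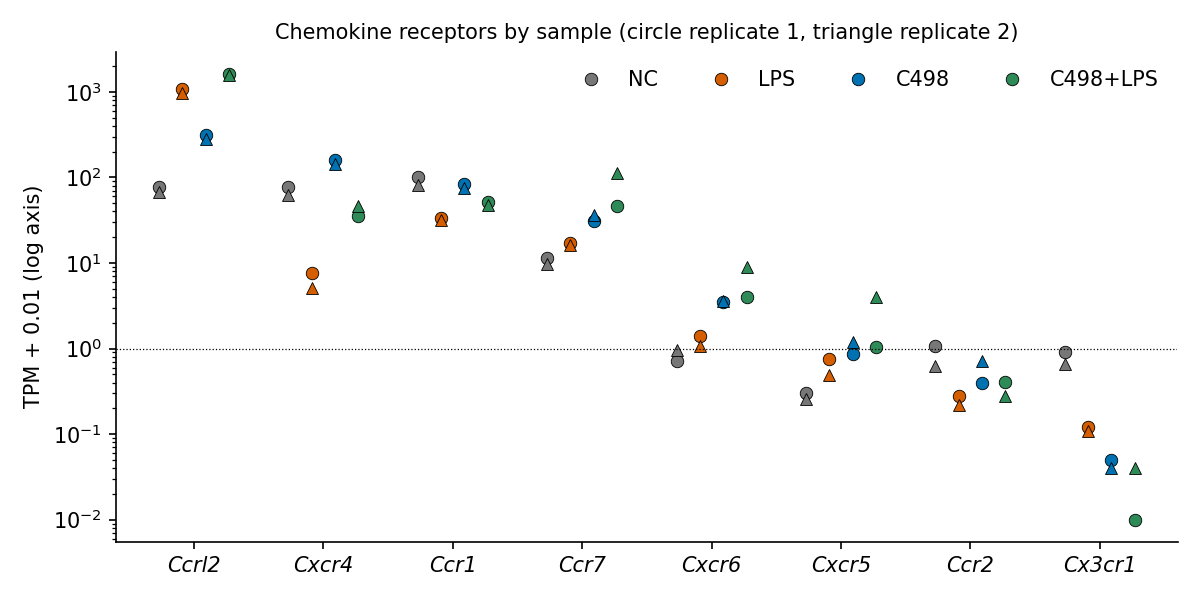
Levels of the 5 members and of Ccr7, Cxcr6 and Cxcr5, as TPM + 0.01 on a log axis, for each sample (circles replicate 1, triangles replicate 2, colours for groups, dotted line at 1 TPM). Ccrl2 reaches 1626.9 TPM in C498+LPS, and in Ccr7, Cxcr6 and Cxcr5 the 2 C498+LPS samples lie apart, with replicate 2 higher.

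Of the other receptors, Ccr7, Cxcr6 and Cxcr5 had their highest mean levels in C498+LPS. Ccr7, the lymph node homing receptor of mature dendritic cells, had 11.4 and 9.82 TPM in NC, 17.2 and 16.2 TPM in LPS, 30.7 and 36.0 TPM in C498, and 46.8 and 112 TPM in C498+LPS. It was called higher in C498 vs NC (log2 change 1.57, adjusted p = 0.0274) in C498+LPS vs LPS (2.06, adjusted p = 0.00926) and in C498+LPS vs NC (2.67, adjusted p = 0.00128). The last call was kept in 8 of 8 refits with a sample left out. The first call was lost in 6 of 8 refits, with adjusted p from 0.0533 to 0.155, and the second without either LPS sample, at 0.0704 and 0.0750. Cxcr6, the receptor of Cxcl16, had 0.71 and 0.95 TPM in NC, 1.40 and 1.06 TPM in LPS, 3.46 and 3.57 TPM in C498, and 4.03 and 9.0 TPM in C498+LPS. The order of its groups matched that of Ccr7. It was called in C498 vs NC (1.31, adjusted p = 0.0403), in C498+LPS vs LPS (1.67, adjusted p = 0.0155) and in C498+LPS vs NC (1.96, adjusted p = 0.00357), the last in 8 of 8 refits. The first and second of these calls were lost in 6 and 3 of 8 refits, the second also without C498+LPS replicate 2, at 1.18 and adjusted p of 0.0543. Cxcr5 had 0.29 and 0.25 TPM in NC, 0.74 and 0.48 TPM in LPS, 0.86 and 1.17 TPM in C498, and 1.03 and 3.98 TPM in C498+LPS. It reached the mean of 1 TPM needed for testing only through C498+LPS, the group where it was highest, so its levels are given as a description with no test.

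The ligands of the receptors were counted from a list of 14 genes that also holds the chemerin receptors Cmklr1 and Gpr1, of which 12 were tested. In LPS vs NC 6 of the 12 were called higher and none lower, beside 5.55% and 6.68% of all tested genes (median log2 change 0.85, all genes -0.17). In C498 vs NC 4 were higher and none lower, beside 5.64% and 1.36% (0.30, all genes 0.01), and in C498+LPS vs C498 5 were higher and none lower, beside 2.52% and 3.13% (0.22, all genes -0.18). C498+LPS vs LPS gave 1 higher and 2 lower, beside 5.39% and 2.18% (0.11, all genes 0.01), and C498+LPS vs NC 5 higher and 1 lower, beside 9.15% and 9.06% (0.89, all genes -0.15). Ccl2, the Ccr2 ligand, averaged 281 TPM in NC, 1805 TPM in LPS, 471 TPM in C498 and 2200 TPM in C498+LPS, with a log2 change of 2.68 in LPS vs NC (adjusted p = 2.02e-06, limma). Its receptor lay near the floor in all groups. Ccl7, which binds Ccr1 and Ccr2, averaged 56.8 TPM in NC, 563 TPM in LPS, 216 TPM in C498 and 784 TPM in C498+LPS. It took the same order of groups as Ccrl2 and was called in LPS vs NC at 3.29 and in C498 vs NC at 1.92 (adjusted p = 4.97e-06 and 0.000171).

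Ccl3, a ligand of Ccr1, averaged 201 TPM in NC, 5946 TPM in LPS, 1237 TPM in C498 and 5712 TPM in C498+LPS. LPS raised it by 4.88 without C498 and by 2.21 with it on the log2 scale (adjusted p = 1.04e-06 and 8.99e-05, limma). Ccl5, another Ccr1 ligand, was lower under LPS with C498 than without it, at 8066 and 7948 TPM in LPS against 4959 and 4918 TPM in C498+LPS, a log2 difference of -0.70 (adjusted p = 0.00639) that is under 2-fold. Ccr1 was thus lowest in the group in which Ccl5 was highest. Cxcl12, the Cxcr4 ligand, had 6.38 and 5.71 TPM in NC, 3.99 and 4.60 TPM in LPS, 12.2 and 15.6 TPM in C498, and 10.04 and 15.5 TPM in C498+LPS. It was called higher in C498 vs NC (1.07, adjusted p = 0.0239) and C498+LPS vs LPS (1.35, adjusted p = 0.00916), calls lost in 5 and 3 of 8 refits with a sample left out. Cxcl12 is a product of fibroblasts, whose markers are given below, and their part in the Cxcl12 values was not tested. Cmklr1, the signaling receptor for the chemerin that Ccrl2 binds, had 64.3 and 47.4 TPM in NC, 57.9 and 51.0 TPM in LPS, 37.9 and 34.0 TPM in C498, and 25.9 and 16.2 TPM in C498+LPS. It was called lower in C498+LPS vs LPS (-1.36, adjusted p = 0.00927) and in C498+LPS vs NC (-1.39, adjusted p = 0.00348), the first lost without either LPS sample or without C498+LPS replicate 2. Within a sample the ratio of Ccrl2 to Cmklr1 mRNA was 1.22 and 1.41 in NC, 18.8 and 18.9 in LPS, 8.32 and 8.27 in C498, and 62.8 and 96.9 in C498+LPS.

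Signaling and shut-off of chemoattractant receptors was followed by 34 genes for G protein subunits, phosphoinositide 3-kinase γ, Rac activation, arrestins, receptor kinases and RGS proteins, which speed the return of G proteins to the resting state. Of the 33 tested, 1 rose and 5 fell in LPS vs NC, where 5.55% and 6.68% of all tested genes did (median log2 change -0.08, all genes -0.17). In C498 vs NC 3 rose and 1 fell, beside 5.64% and 1.36% (-0.27, all genes 0.01), and in C498+LPS vs C498 none rose and 3 fell, beside 2.52% and 3.13% (-0.25, all genes -0.18). C498+LPS vs LPS had 2 that rose and 3 that fell, beside 5.39% and 2.18% (-0.21, all genes 0.01), and C498+LPS vs NC 2 and 7, beside 9.15% and 9.06% (-0.46, all genes -0.15). Rgs2 was called in the same direction as Cxcr4 in 4 comparisons, and differed from it in C498+LPS vs NC, at 0.08 (adjusted p = 0.768) against -0.76 for Cxcr4. It had 18.6 and 14.2 TPM in NC, 1.54 and 2.43 TPM in LPS, 54.7 and 49.8 TPM in C498, and 15.9 and 18.8 TPM in C498+LPS. Its log2 change was -2.55 in LPS vs NC, 1.62 in C498 vs NC, -1.54 in C498+LPS vs C498 and 2.63 in C498+LPS vs LPS (adjusted p = 0.000191, 0.00345, 0.00403 and 0.000653, limma), where the middle pair was lost without C498 replicate 1 at adjusted p of 0.0541 and 0.0561. Rgs1 rose with either treatment against NC, from 72.8 and 68.0 TPM in NC to 172 and 147 TPM in LPS, 464 and 369 TPM in C498, and 248 and 269 TPM in C498+LPS. With C498 present, LPS lowered Rgs1 by a log2 change of -0.68 (adjusted p = 0.0180, limma), which is under 2-fold. Rgs16 rose in C498 vs NC (1.39, adjusted p = 0.0147) and C498+LPS vs LPS (1.07, adjusted p = 0.0316), and lost these calls in 3 and 5 of 8 refits. In C498+LPS vs NC it rose by 1.97 (adjusted p = 0.00128), a call kept in 8 of 8 refits.

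Other genes of this list fell. Arrb1, which encodes β-arrestin 1, fell in LPS vs NC (-2.02, adjusted p = 0.00827, limma), from 34.8 and 19.6 TPM to 7.01 and 4.64 TPM, and in C498+LPS vs NC (-2.55, adjusted p = 0.00224). Without LPS replicate 2 the first had an adjusted p of 0.0672. Its relative Arrb2 fell in C498+LPS vs NC (-1.32, adjusted p = 0.00178). Plcb2, a phospholipase C that chemokine receptors activate, fell with LPS both without C498 (-1.49, adjusted p = 0.00267) and with it (-1.27, adjusted p = 0.0103), the latter lost when any sample of the groups compared was left out. Vav1, an exchange factor for Rac, fell in LPS vs NC by 1.01 on the log2 scale (adjusted p = 0.000413), and without NC replicate 1 or LPS replicate 2 it was just under 2-fold at -0.97. Pik3r6 and Pik3cg, the adaptor and catalytic subunits of phosphoinositide 3-kinase γ, fell in C498+LPS vs LPS (-1.63 and -1.499, adjusted p = 0.00155 and 0.0121), where the Pik3cg call was lost in 3 of 8 refits, among them without C498+LPS replicate 2. Rgs14 fell in the same comparison (-1.47, adjusted p = 0.000793). Rgs19 fell in C498+LPS vs NC (-1.28, adjusted p = 0.00409), where it was under 2-fold at -0.93 without C498+LPS replicate 1. Rgs18, counted above among the falls of both LPS groups against NC, averaged 3.39 TPM in NC, 0.415 TPM in LPS, 1.53 TPM in C498 and 0.53 TPM in C498+LPS, and reached the mean of 1 TPM needed for testing only through NC, so its calls there are given no weight.

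The genes whose log2(TPM + 1) followed each receptor most closely over the 8 samples are given as a description, since these samples share 4 treatments and the genes were picked for likeness. Ccrl2 was closest to Cxcl1 (Pearson r = 0.999), a neutrophil attractant with group means of 12.4 TPM in NC, 662 TPM in LPS, 122 TPM in C498 and 1307 TPM in C498+LPS, and then to Ripk2 (0.997), the kinase of NOD receptors, and the chemokine Ccl4 (0.996). For Cxcr4 the closest were Mxi1 (0.994), an antagonist of Myc, the fatty acid desaturase Fads1 (0.993) and Atg2b (0.993), a lipid transfer protein of autophagy. Ccr1 was close to Tmem65 (0.997) and β-catenin, Ctnnb1 (0.990). The low Ccr2 values were closest to Adamts10 (0.966), Ssh1 (0.966) and Usp35 (0.962), and those of Cx3cr1 to Samd10 (0.980), C130050O18Rik (0.977) and D730003I15Rik (0.976).

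The cells carried macrophage markers throughout. The 7 markers, all above 1 TPM, summed to 19847 to 20355 TPM in NC, 16586 to 17222 TPM in LPS, 15253 to 15412 TPM in C498 and 10626 to 12411 TPM in C498+LPS. Most of this sum was Lyz2, the lysozyme gene, which averaged 15986 TPM in NC and 8536 TPM in C498+LPS. In C498+LPS vs NC 2 of the 7 were called lower, beside 9.06% of all tested genes, and Csf1r, the receptor of macrophage colony-stimulating factor, averaged 313 TPM in NC, 195 TPM in LPS, 229 TPM in C498 and 104 TPM in C498+LPS. The part of these differences in the receptor values was not tested. Markers of other cells moved with C498. The 5 fibroblast markers, collagens and Pdgfra among them, summed to 150 to 192 TPM in NC and 176 to 200.5 TPM in LPS, but 633 to 750 TPM in C498 and 618 to 911 TPM in C498+LPS, and all 5 were called higher in C498 vs NC, beside 5.64% of all tested genes. The 4 mesothelial markers summed to 3.67 to 4.65 TPM without C498 and 12.7 to 21.4 TPM with it. Their part in the C498 values of Cxcr4, Ccrl2 and Cxcl12 was not tested. The 6 dendritic cell markers, of which Ccr7 itself is 1, summed to 10.7 to 13.5 TPM in NC, 17.1 to 18.6 TPM in LPS, 34.0 to 39.7 TPM in C498 and 50.04 to 117 TPM in C498+LPS. Ccr7 made up most of this sum in every sample, at 11.4 of 13.5 TPM in NC replicate 1 and 112 of 117 TPM in C498+LPS replicate 2, so the sum largely restates Ccr7, and dendritic cells' part in the Ccr7 values was not tested. For the monocytes and granulocytes in which Ccr1, Ccr2 and Cx3cr1 are also found, the 6 monocyte markers summed to 387 to 590 TPM in all samples, while Ly6c2, the marker of inflammatory monocytes, averaged 231 and 254 TPM in NC and LPS against 61.4 and 41.5 TPM in C498 and C498+LPS. Another of the 6, Fn1, which encodes fibronectin and is also made by fibroblasts, went the other way, at 119.5 and 139 TPM against 388 and 403 TPM. The 7 neutrophil markers summed to 223 to 260 TPM without and 128 to 156 TPM with C498. Ly6g and S100a9 did not share this fall, being at 0 in every NC and LPS sample. Ly6g averaged 1.31 TPM in C498 and 0 TPM in C498+LPS, and S100a9 0.33 and 0.545 TPM. The eosinophil gene Epx was at 0 in all 8 samples. As a sum, the 7 markers of resident peritoneal macrophages were lower in the samples with LPS. The sum was 64.8 to 115 TPM in NC against 29.2 to 34.2 TPM in LPS. It was 64.6 to 65.3 TPM in C498 against 25.8 to 28.0 TPM in C498+LPS. Gata6, 1 of these markers, averaged 3.155 TPM in NC, 1.885 TPM in LPS, 6.65 TPM in C498 and 5.95 TPM in C498+LPS. It thus stood above NC in both groups with C498. Of the 4 tested, 1 was called lower with LPS in either setting, beside 6.68% of all tested genes without C498 and 3.13% with it. In C498+LPS vs LPS 1 was called higher, beside 5.39%. The part of these markers in the LPS values of Ccr1 and Cxcr4 was not tested. The markers of T cells, B cells, NK cells, mast cells, eosinophils and endothelial cells each summed to at most 20.5 TPM. In bulk RNA, fewer cells of a type and less RNA per cell cannot be told apart. C498+LPS replicate 2 stood above replicate 1 in the summed markers of several other cell types, at 13.8 against 4.46 TPM for B cells, 20.5 against 7.21 TPM for mast cells, 7.89 against 3.32 TPM for T cells and 7.22 against 2.83 TPM for endothelial cells. The part of this difference in the Ccr7, Cxcr5 and Cxcr6 values above was not tested. The 8 samples had 17528 to 18975 genes above 0, and replicates of a group correlated over genes at r of 0.962 to 0.981.

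**Figure D4:**
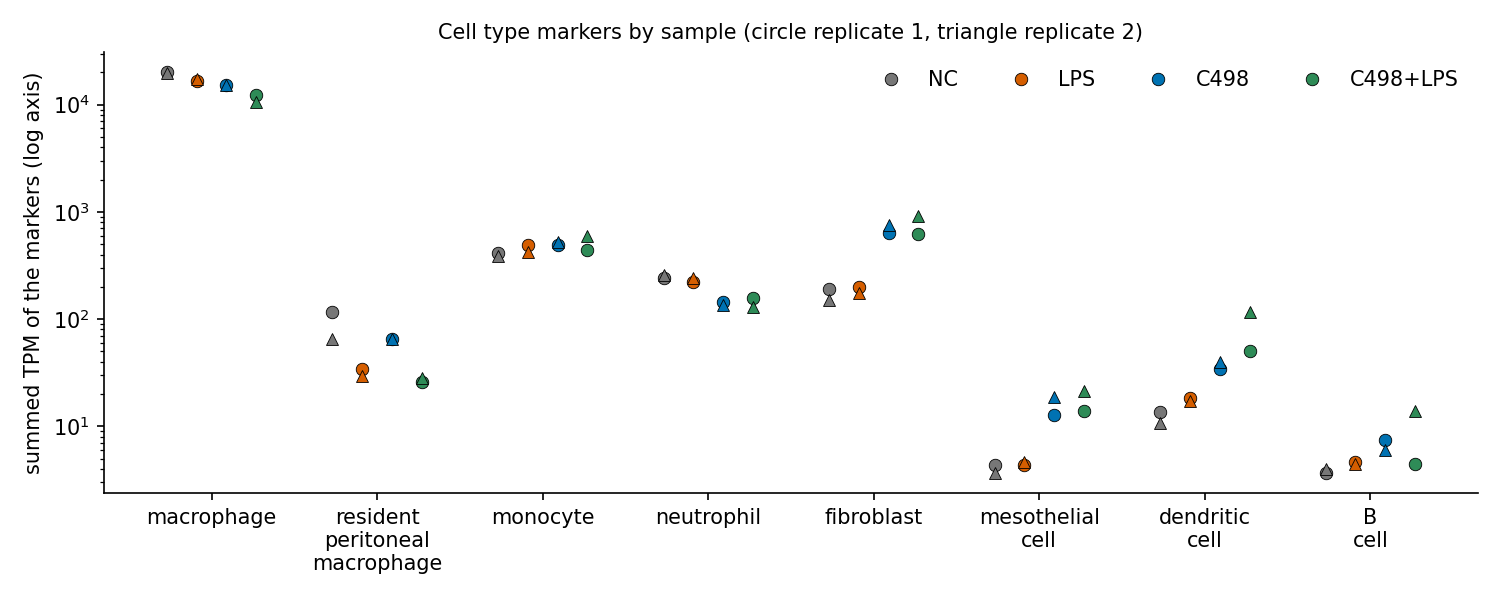
Summed TPM of marker genes for 8 cell types on a log axis, Ccr7 being in the dendritic cell list, for each sample (circles replicate 1, triangles replicate 2, colours for groups). Fibroblast and mesothelial sums are higher in all 4 samples with C498 than in the 4 without, and macrophage markers are at least 10626 TPM in every sample.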

How the data were processed

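RNA of 8 samples of mouse peritoneal macrophages, 2 per group, was sequenced on an Illumina platform. The authors' processing used fastp for read filtering, HISAT2 for alignment, StringTie for assembly and RSEM for gene levels, with versions and genome build not given in the sources used here. The deposited values are TPM, rounded to 2 decimals, beside group means, gene lengths and annotation, in a table of 26 columns. TPM keeps no read depth, so the depth is unknown and no counting interval is given. The authors' own tests ran on counts, which were not analysed here.

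From these values log2(TPM + 1) was computed, and the 12189 genes with a mean of at least 1 TPM, of 24248 above 0 in any sample, were fitted with limma 3.58.1 in R 4.3.3, with 1 mean per group over all 8 samples, a variance trend and Benjamini-Hochberg adjustment within each comparison. A call needed a 2-fold change with an adjusted p no higher than 0.05. The script was tested on simulated data. Alternatives were a pseudocount of 0.1 TPM, no filter, a mean of at least 5 TPM, median centring, quantile normalization, only the groups compared, no variance trend, a replicate block, no fold threshold, each sample left out in turn and, added after the data were seen, no filter together with a pseudocount of 0.1 TPM.

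The 5 genes and all lists (other chemokine receptors, ligands, signaling genes and markers of 13 cell types) were chosen with earlier results of these data known. Named beyond the 5 genes were other receptors with a mean of at least 1 TPM and those of the Ccr2 cluster, at most 6 ligands, signaling genes called in any comparison, the 3 genes most correlated with each receptor and its neighbours on the chromosome. Some genes that these rules name are not reported here. Neighbours at under 1 TPM are not described, and Gpr1 was at 0 throughout. Positions come from GENCODE M21 and promoter windows from RefSeq, GRCm38.p6. Figures were drawn with matplotlib 3.10.9.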

Additional observations from a re-analysis of the deposited data

Results flagged for a closer look

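The change by LPS differed with and without C498 for 5 of the genes described, by the interaction term in limma. In each, the log2 change by LPS was lower where C498 was present. The mean level itself was higher in C498+LPS than in LPS for Ccrl2, Ccl4, Ccl7 and Rgs1. For Ccl3 it was 5712 against 5946 TPM. In Rgs1 the log2 change by LPS was 1.16 without C498 and -0.68 with it. For Ccrl2 the difference of the 2 log2 changes was -1.39 (adjusted p = 0.0214). The same difference was -2.68 for Ccl3 (adjusted p = 0.00310), -2.18 for Ccl4 (adjusted p = 0.00310), -1.44 for Ccl7 (adjusted p = 0.0214) and -1.84 for Rgs1 (adjusted p = 0.0190). Each of the 5 was also called higher in C498 vs NC. In Ccl3 and Ccl4 the call held when each of the 8 samples was left out in turn, while it was kept in 3 of 8 refits for Ccl7 and in 2 of 8 for Rgs1 and Ccrl2. The explanations for these differences were not tested.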

How the results depend on the processing

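No change of a member or other called gene turned its direction under any alternative. Several calls near the threshold were lost under processing settings too, beyond the refits with a sample left out. Over all alternatives, Cxcl12 in C498 vs NC lost its call in 10 and kept it in 7. Rgs16 in C498+LPS vs LPS lost it in 11 and kept it in 5. Cxcr6 in C498 vs NC lost it in 10 and kept it in 6. The count of called members stayed within 1.5 times its value except as follows. In C498 vs NC it was 1 after centring on the median gene and ranged from 1 to 2 with a sample left out. Without a fold threshold it was 3 when C498+LPS was set against LPS and 3 when it was set against NC. The last comparison gave 2 with no filter and a pseudocount of 0.1 TPM, where Cx3cr1 joined Ccrl2, and 1 to 2 with a sample left out, where Ccr1 passed at -1.03 without NC replicate 2. In the interaction the count was 0 with no filter, 0 without the variance trend, 0 with no filter and a pseudocount of 0.1 TPM, and 0 to 1 with a sample left out, the Ccrl2 value staying between -1.58 and -1.28. The cause was not tested. With a replicate block the counts of called members were 3, 2, 2, 1, 1 and 1 in the order of the 6 comparisons, as without it. The paired numbers rest on labels alone, since same-numbered samples deviated together over genes at r from 0.0397 to 0.168, and only the pairs with NC passed 0.1. Of the low genes, Ccr2 and Cx3cr1 can be read only through values rounded to 2 decimals, and with 2 samples a group each call leans on the variance shared across genes.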
